A study of Mus musculus with 2 samples.

Results

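Keratins are the intermediate filament proteins of epithelial cells, and 51 keratin genes were measured in RNA from the cranial sutures of newborn mice, out of 23930 targets. They were chosen by symbol, as every target named Krt followed by a number and at most 1 letter, so that keratin-associated protein genes were left out. The samples were 2 bulk libraries, called library 1 and library 2 after the number in their titles, from coronal, sagittal and lambdoid suture tissue of wildtype mouse pups at postnatal day 3. Both form 1 group, carry the same batch number and have no treated or mutant counterpart. The cell type label reads suture stem cells, but the extraction protocol covers whole tissue without a sort. Levels are given in CPM, a unit in which each library's reads are scaled to the same total. All 9 suture mesenchyme genes measured were read in both libraries, and the 3 highest were Postn at 445 and 331 CPM in libraries 1 and 2, Twist1 at 124 and 72.8 CPM, and Zic1 at 39.6 and 99.9 CPM. All 7 osteoblast genes were read too, led by the collagen genes Col1a1 at 119187 and 132878 CPM and Col1a2 at 27745 and 22481 CPM and by Spp1 at 1655 and 3888 CPM. By the exact binomial test described with the keratin calls, 2 of the suture and 1 of the osteoblast genes were higher in library 1, and 5 and 6 were higher in library 2, where 17.1% of all targets were called toward library 1 and 20.0% toward library 2. Genes of other tissues were also found, and their values are given beside the keratins they moved with. Library 1 held 5663344 reads and library 2 held 15802610 reads, so 1 read stands for 0.177 CPM in the first and 0.0633 CPM in the second.

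A keratin filament forms from pairs of a type I and a type II chain, and cells choose partner chains by cell type and by stage of differentiation. In skin, dividing basal cells make KRT5 with KRT14 and KRT15, and cells that leave the basal layer switch to KRT1 with KRT10. Single-layered epithelia such as gut, gland duct and airway lining make KRT8 with KRT18 and KRT19. The hair follicle has its own sets for the root sheaths and for the hard keratins of the shaft. Keratins are markers of epithelium, whereas suture mesenchyme and bone cells build their filaments mainly from vimentin.

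The keratins took a small part of each library. Their summed level was 148 CPM in library 1, 283 CPM in library 2 and on average 216 CPM ± 95.3 (SD, n = 2). Vim, the vimentin gene, alone stood at 1260 CPM in library 1 and 849 CPM in library 2. Of the 51 keratins, 11 reached 1 CPM in both libraries (21.6%, against 55.0% of all targets), 3 reached 10 CPM in both, and 5 had no read in either. The median keratin stood at 0.595 CPM, against 3.29 CPM over all targets. The class that led differed between the libraries. Basal keratins made up 48.7% of the keratin CPM of library 1 and 30.9% of that of library 2. Simple epithelial keratins, whose main place is single-layered epithelium, made up 7.50% in library 1 and 46.7% in library 2.

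**Figure D1:**
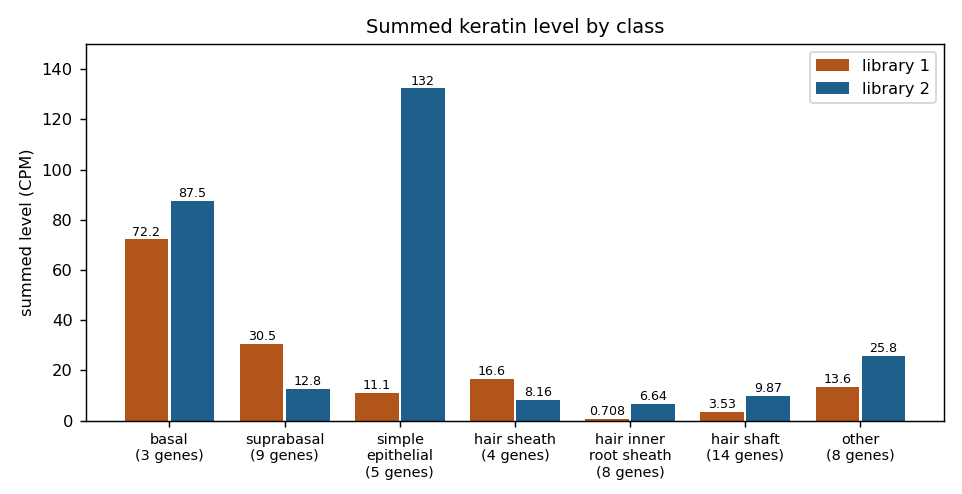
Summed level in CPM of the keratins of each class, with 1 bar per library (orange for library 1, blue for library 2). Basal keratins are near each other, at 72.2 and 87.5 CPM, whereas simple epithelial keratins stand at 11.1 CPM (library 1) and 132 CPM (library 2).

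The libraries were compared target by target by the exact binomial test (two-sided) of the reads behind the CPM values, adjusted by Benjamini and Hochberg over all 23930 targets, and an adjusted p under 0.05 was called. The test compares 2 libraries of 1 group and not conditions, and it covers counting error only, whereas expressed genes varied far more than counting error between these libraries (chi-square 116 per degree of freedom over 9192 targets). Of all targets, 37.0% were called, 17.1% as higher in library 1 and 20.0% as higher in library 2. Of the 51 keratins, 19 were called (37.3%), 6 as higher in library 1 and 13 as higher in library 2. The share of keratins called was thus near that of all targets at this setting, though fewer keratins were detected (21.6%, against 55.0% of all targets). With a difference of at least 2-fold also required, 17 of the 51 keratins stayed called, against 14.8% of all targets. In bulk tissue, fewer cells of a type and less RNA per cell cannot be told apart.

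**Figure D2:**
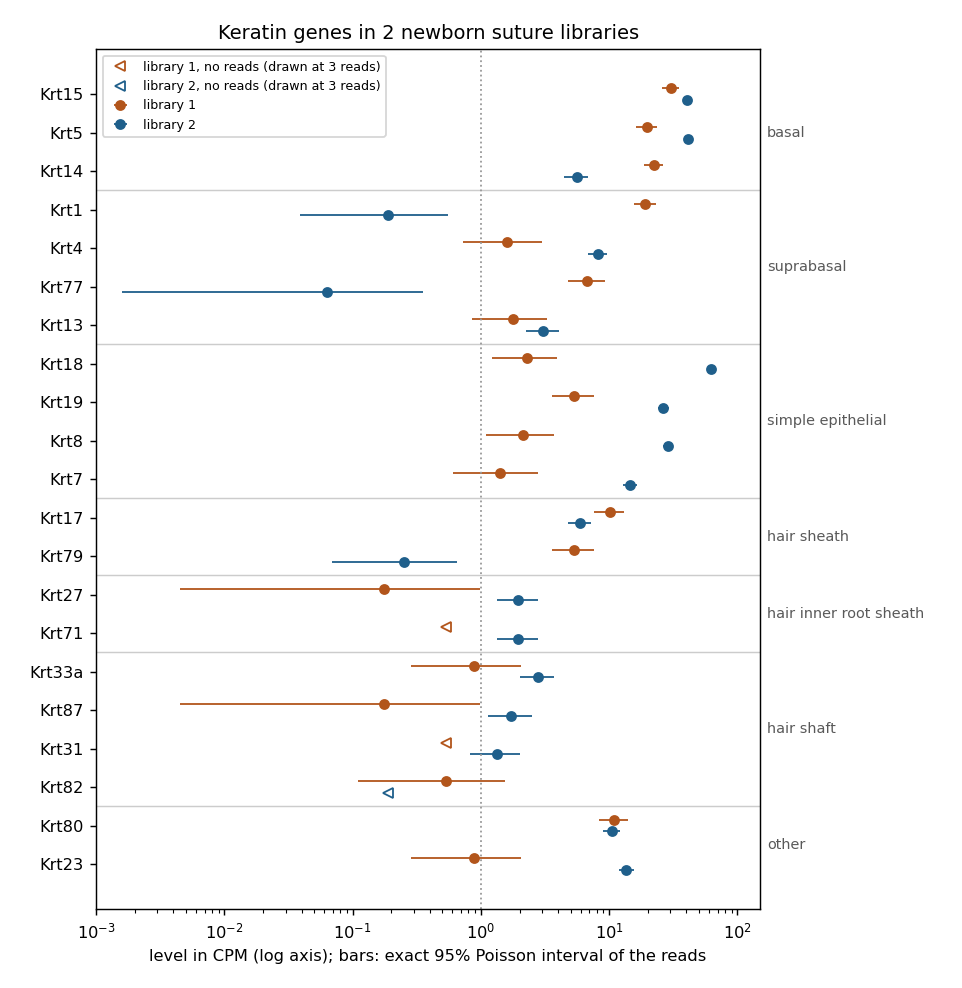
Level in CPM on a log axis of each keratin that reached 1 CPM in both libraries or was called different between them, with exact 95% Poisson intervals of the reads. Open triangles mark libraries with no read, drawn at the limit of 3 reads. Krt1, Krt77 and Krt79 lie far to the right in library 1, and Krt18, Krt8, Krt7, Krt19 and Krt23 in library 2.

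The basal keratins Krt15, Krt5 and Krt14 were all detected, and they moved in different directions. Krt15, a type I chain of basal cells and of hair follicle stem cells, stood at 30.2 CPM in library 1 and 40.5 CPM in library 2, a mean of 35.3 CPM ± 7.29 (SD, n = 2), the highest of all keratins. Krt5, the type II chain of the basal layer, was read at 19.8 CPM and 41.4 CPM, a mean of 30.6 CPM ± 15.3 (SD, n = 2). Both were higher in library 2, Krt15 by 1.34-fold (exact 95% interval 1.13 to 1.60, adjusted p = 0.00193, exact binomial test) and Krt5 by 2.10-fold (1.71 to 2.58, adjusted p = 4.94e-14, exact binomial test). Krt14, the usual partner of Krt5, went the other way, at 22.2 CPM in library 1 and 5.57 CPM in library 2. It was 4.0-fold higher in library 1 (3.02 to 5.31, adjusted p = 3.22e-22, exact binomial test). In the mm10 annotation Krt5 lies on chromosome 15 from 101707070 to 101712898, and Krt14 and Krt15 lie on chromosome 11 from 100203162 to 100207548 and from 100131758 to 100135928, all on the minus strand. Gm44323 overlaps Krt5 on the opposite strand, and Gm36026, Gm671, Gm11940 and Gm35853 likewise overlap Krt8, Krt7, Krt10 and Krt80. The sources used here do not give the strand of the reads, so reads of such a pair of genes cannot be told apart.

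All 10 genes listed for hemidesmosomes and the basal layer had their higher value in library 2, as Krt5 did and Krt14 did not. Among them, 9 reached 1 CPM in both libraries, 7 were called higher in library 2 (70%, against 20.0% of all targets) and none in library 1. Dsg3, a basal epidermis gene outside this list, had 2 reads in library 1 and 1 in library 2 and was not called. Which cells the reads of the listed genes came from was not tested. Dst, a linker of keratin filaments to the membrane, stood at 77.0 and 87.1 CPM and was not called (adjusted p = 0.0660, exact binomial test). Itga6, the laminin-binding integrin chain, stood at 61.1 and 94.9 CPM, and its partner Itgb4 at 14.5 and 28.0 CPM. Trp63, the master regulator of stratified epithelium, was at 7.42 CPM in library 1 and 10.8 CPM in library 2 and was not called (adjusted p = 0.0751, exact binomial test).

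Of the 9 suprabasal keratins, Krt1 and Krt77 were called higher in library 1, Krt4 was called higher in library 2, and 6 were not called. The share called was 33.3%, against 37.0% of all targets. It was 22.2% toward library 1 and 11.1% toward library 2, against 17.1% and 20.0% of all targets. Krt1, the type II chain that appears when epidermal cells leave the basal layer, stood at 19.1 CPM in library 1 from 108 reads, and at 0.190 CPM in library 2 from 3 reads. The ratio was 100 to 1 toward library 1 (interval 33.5 to 495, adjusted p = 1.36e-56, exact binomial test). On the log2(CPM + 1) scale Krt1 fell by 4.08 from library 1 to library 2, which placed it at rank 1 of all 23930 targets for excess in library 1. Krt77, a type II chain known from eccrine sweat gland ducts in humans and from the epidermis in mice, had 38 reads in library 1 (6.71 CPM) and 1 read in library 2 (0.0630 CPM). Its ratio was 106 (interval 17.9 to 4297, adjusted p = 4.67e-20, exact binomial test), and its log2 excess in library 1 was at rank 7 of all targets. Krt10, the partner of Krt1, was low in both libraries, at 1.41 CPM from 8 reads in library 1 and 0.633 CPM from 10 reads in library 2, and was not called (adjusted p = 0.228, exact binomial test). Whether the Krt10 amplicon reads its transcript as well as the Krt1 amplicon does was not tested.

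Krt4 and Krt13, a type II and a type I chain that pair in the suprabasal layers of mouth and oesophagus lining, had their higher values in library 2. Krt4 stood at 1.59 CPM in library 1 and 8.16 CPM in library 2, 5.14-fold higher (2.62 to 11.5, adjusted p = 2.07e-08, exact binomial test). Krt13 stood at 1.77 and 3.04 CPM, a ratio of 1.72 (0.859 to 3.81, adjusted p = 0.282, exact binomial test), and was not called. The remaining suprabasal keratins were at or near 0. Krt78 had 8 reads, Krt76 had 2 and Krt9, a keratin of palm and sole skin, had 1 read, all in library 2, and Krt2, of the upper epidermis, had none. No read allows a level of up to 0.530 CPM (library 1) or 0.190 CPM (library 2), which covers counting error only, so a low level of Krt2 was not detectable at this depth.

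Genes of the cornified envelope, the protein shell of the outermost skin cells, were called toward library 1 where they were called at all, as Krt1 and Krt77 were. Of 15 such genes measured, 3 reached 1 CPM in both libraries. Calls were 4 toward library 1 (26.7%, against 17.1% of all targets) and none toward library 2 (against 20.0% of all targets). Summed over the list, library 1 held 31.8 CPM and library 2 held 17.0 CPM. The highest were Dmkn at 9.18 and 7.15 CPM and Lor, the loricrin gene, at 5.47 and 4.49 CPM, neither of which was called. Krtdap, a secreted protein gene of differentiating skin cells, stood at 5.83 and 1.39 CPM (adjusted p = 1.20e-06, exact binomial test). Flg, the filaggrin gene, had 24 reads in library 1 (4.24 CPM) and 1 read in library 2 (0.0630 CPM) (adjusted p = 2.37e-12, exact binomial test). Dsc1, a desmosomal cadherin of upper epidermis that belongs to the desmosome list and not to this one, stood at 1.77 and 0.127 CPM (adjusted p = 2.68e-04, exact binomial test).

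The simple epithelial keratins were the class with the widest gap between the libraries, 11.9-fold in summed CPM. Of the 5 members, 4 reached 1 CPM in both libraries (80%, against 55.0% of all targets). The same 4 were called higher in library 2 (80%, against 20.0% of all targets). Krt18, a type I chain, stood at 2.30 CPM in library 1 from 13 reads and at 62.6 CPM in library 2 from 989 reads, where it was the highest keratin. It was 27.3-fold higher in library 2 (15.9 to 51.4, adjusted p = 1.83e-108, exact binomial test), at rank 34 of all targets for log2 excess in library 2. Krt8, the type II partner of Krt18, stood at 2.12 and 28.7 CPM and was 13.6-fold higher (7.69 to 26.4, adjusted p = 5.77e-43, exact binomial test). Krt7, a type II chain of ducts and glands, stood at 1.41 and 14.6 CPM and was 10.3-fold higher (5.16 to 24.3, adjusted p = 3.69e-20, exact binomial test). Krt19, a small type I chain of simple epithelia that hair follicle cells also make, stood at 5.30 and 26.4 CPM and was 4.98-fold higher (3.44 to 7.48, adjusted p = 2.43e-25, exact binomial test). Krt20, a keratin of gut lining, urothelium and Merkel cells, had no read in either library.

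Markers of nasal epithelium and of epithelium in general were higher in library 2 as these keratins were. Of 10 genes of sustentacular and other nasal epithelial cells, 9 were called higher in library 2 (90%, against 20.0% of all targets). The other 1 was not called, and the 10 summed to 67.6 CPM (library 1) and 1049 CPM (library 2). The highest were Bpifa1 at 50.7 and 226 CPM, Cyp2a5 at 1.59 and 230 CPM, and Cyp2g1, a cytochrome P450 of olfactory mucosa, at 4.94 and 196 CPM. None of these 10 genes was at 0 in either library. All 10 olfactory sensory neuron genes were called higher in library 2 (100%, against 20.0% of all targets). They summed to 116 and 590 CPM and were led by Omp, Adcy3 and Gnal at means of 129, 109 and 39.8 CPM. Of 12 genes expressed by epithelia of many kinds, 11 were called higher in library 2 (91.7%, against 20.0% of all targets). The 12 summed to 19.4 and 182 CPM. These were led by Cdh1, the epithelial cadherin, at 4.24 and 44.2 CPM, Epcam at 5.12 and 29.9 CPM, and Cldn7 at 4.06 and 28.4 CPM. The part of nasal tissue in the keratin differences was not tested.

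Tooth germ, Merkel cell and mesothelium genes could also accompany simple keratins. Of 8 tooth germ epithelium genes, 7 were called higher in library 2 (87.5%, against 20.0% of all targets). The 8 summed to 138 and 543 CPM, led by the enamel matrix genes Amelx and Ambn at means of 236 and 64.2 CPM. Of 7 Merkel cell genes, 3 were called higher in library 2 (42.9%, against 20.0% of all targets) and 4 were not called. The 3 highest were Piezo2, Snap25 and Rab3c at means of 60.1, 8.98 and 8.91 CPM. Atoh1, the factor that defines Merkel cells, stood at 0.530 CPM in library 1 (3 reads) and 0.823 CPM in library 2 (13 reads). It was not called (adjusted p = 0.869, exact binomial test). Of 5 mesothelium genes, Msln (3.89 and 25.4 CPM) and Upk1b (0.706 and 2.53 CPM) were called higher in library 2. That was 40%, against 20.0% of all targets. Upk3b and Wt1 had 1 read each, both in library 2, and Lrrn4 had none. The part of these cell types in the keratin differences was not tested.

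**Figure D3:**
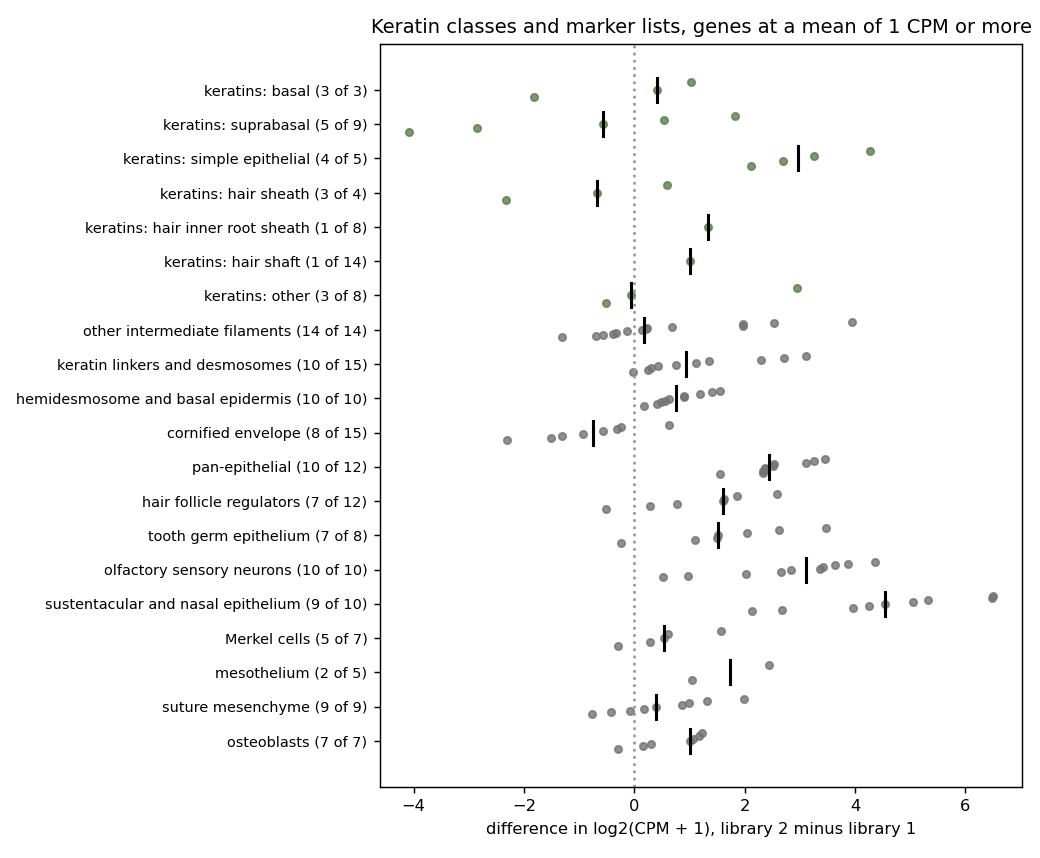
Difference in log2(CPM + 1), library 2 minus library 1, of each gene at a mean of 1 CPM or more, by keratin class (green) and by marker list (grey). Black lines mark medians, and the numbers in brackets give how many of the measured genes are shown. The 4 simple keratins shown lie between 2.12 and 4.27 with a median of 2.97, against medians of 2.44 for the pan-epithelial, 3.10 for the olfactory neuron and 4.54 for the nasal epithelium list, and Krt1 and Krt77 lie at -4.08 and -2.86.

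Levels of the linkers of keratin filaments ranged widely, from Dsg4 with no read to Plec. Of 15 genes of desmosomes and keratin linkers, 7 reached 1 CPM in both libraries (46.7%, against 55.0% of all targets). Calls were 8 toward library 2 (53.3%, against 20.0% of all targets) and 1, Dsc1, toward library 1 (6.67%, against 17.1%). Plec, a cytolinker that bone, muscle and mesenchyme also express, stood at 334 and 563 CPM, Jup, plakoglobin, at 116 and 138 CPM, and Perp at 15.5 and 21.4 CPM. Dsg2, the desmosomal cadherin of simple epithelia, stood at 0.353 CPM in library 1 and 10.8 CPM in library 2 (adjusted p = 7.82e-19, exact binomial test). Dsg3, the one of the basal epidermis, had 2 reads and 1 read. Among 14 other intermediate filament genes, all of which reached 1 CPM in both libraries, 5 were called in each direction. That was 35.7% each way, against 17.1% of all targets toward library 1 and 20.0% toward library 2. The highest were the muscle gene Des at a mean of 1126 CPM, Vim at 1054 CPM and the nuclear lamin gene Lmna at 954 CPM.

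The hair keratins were the largest class by number and low in level. Of 26 genes, 1 reached 1 CPM in both libraries, 2 reached it in library 1 and 8 in library 2, and their sums were 20.8 CPM (library 1) and 24.7 CPM (library 2). The calls were 2 toward library 1 and none toward library 2 among sheath keratins, none and 2 among inner root sheath keratins, and 1 and 3 among shaft keratins. Over all 26, 3 were called toward library 1 (11.5%, against 17.1% of all targets) and 5 toward library 2 (19.2%, against 20.0%). Neither share was above that of all targets. The kinds were not tested against each other. Among the keratins of the outer sheath and follicle mouth, Krt17, a type I chain of appendage epithelium that wounding also induces, stood at 10.1 CPM in library 1 and 5.89 CPM in library 2. It was 1.71-fold higher in library 1 (1.21 to 2.40, adjusted p = 0.00698, exact binomial test). Krt79, a type II chain of the hair follicle opening and sebaceous duct, had 30 reads in library 1 (5.30 CPM) and 4 in library 2 (0.253 CPM). That was 20.9-fold higher in library 1 (7.37 to 81.8, adjusted p = 6.39e-13, exact binomial test), at rank 39 of all targets for log2 excess there. Krt75, of the companion layer and also of enamel, stood at 0.706 and 1.58 CPM, and Krt16, a partner of Krt6 chains in stressed epidermis, at 0.530 and 0.443 CPM. Neither was called.

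The inner root sheath keratins were read mainly in library 2. Their 8 members had 4 reads in all in library 1 and 105 reads in library 2, or 0.708 and 6.64 CPM. Krt27 and Krt71, a type I and a type II chain of the inner root sheath, both stood at 1.96 CPM in library 2 from 31 reads each, against 1 read and no read in library 1. The ratio of Krt27 was 11.1 toward library 2 (1.85 to 453, adjusted p = 0.00361, exact binomial test). Krt71 was called higher in library 2 (adjusted p = 4.97e-04, exact binomial test). With library 1 set at 3 reads its ratio was 3.70, which leaves out the counting error of library 2. Krt25 had 1 read and 16 reads and Krt26 none and 11, and neither was called. Krt73, Krt72, Krt74 and Krt28 had 8 reads or fewer in each library, and Krt74 is annotated as a pseudogene.

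The hair shaft keratins had 20 reads in library 1 and 156 in library 2 over 14 genes, or 3.53 and 9.87 CPM. Krt33a, a type I chain of the shaft, stood at 0.883 and 2.78 CPM and was 3.15-fold higher in library 2 (1.25 to 10.2, adjusted p = 0.0256, exact binomial test). Krt87 had 1 read and 27 reads, a ratio of 9.68 (1.59 to 396, adjusted p = 0.0129, exact binomial test). Krt31 had no read in library 1 and 21 reads in library 2 and was called higher there (adjusted p = 0.00750, exact binomial test). With library 1 set at 3 reads its ratio was 2.51, which leaves out the counting error of library 2. Krt82 was called higher in library 1 from 3 reads against none (adjusted p = 0.0497, exact binomial test), which is at the limit of detection. Krt36 with 2 and 15 reads, Krt32 with 5 and 7, Krt84 with 2 and 8, Krt83 with 1 and 9, and Krt33b with 1 and 6 were not called. Krt35, Krt40, Krt81 and Krt34 had 8, 7, 3 and 1 reads in library 2 and none in library 1, and Krt39 had none in either.

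Such low values were set beside gene families not known to be expressed in suture. The 50 keratin-associated protein genes measured, which code for the matrix of the hair shaft, averaged 0.406 CPM per gene in library 1 and 0.362 CPM in library 2, with 1 of them at 1 CPM in both. The 82 Vmn2r genes, receptors of the vomeronasal organ with several coding exons, averaged 0.0259 and 0.0224 CPM, and the 147 Vmn1r genes, receptors with 1 coding exon, averaged 0.294 and 0.212 CPM. Hair shaft keratins, which have several coding exons, averaged 0.252 CPM per gene in library 1 and 0.705 CPM in library 2, and inner root sheath keratins 0.0885 and 0.831 CPM. In library 2 both kinds of hair keratin thus averaged above all 3 of these families, whereas in library 1 both averaged above the Vmn2r genes only. Of the 50 keratin-associated protein genes, 3 were called higher in library 1 (6%, against 17.1% of all targets) and none in library 2 (against 20.0%). Among 12 regulators of the hair follicle, 6 were called higher in library 2 (50%, against 20.0% of all targets). Another 1 was called higher in library 1 (8.33%, against 17.1%), and 5 were not called. The 3 highest, Dlx3, Sox9 and Lhx2 at means of 108, 44.1 and 22.3 CPM, are also expressed in bone, cartilage or olfactory tissue. Foxn1, a factor of hair and nail differentiation, had no read in library 1 and 33 reads in library 2 (adjusted p = 3.27e-04, exact binomial test). Tchh, trichohyalin of the inner root sheath, had 1 read and 24 reads (adjusted p = 0.0296, exact binomial test), and Hoxc13, a regulator of shaft keratins, had none.

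Of the 8 keratins outside these classes, 2 were well read. Krt80, a type II chain of many epithelia, stood at 10.9 CPM in library 1 and 10.4 CPM in library 2, a mean of 10.7 CPM ± 0.359 (SD, n = 2) and a ratio of 1.05 (0.770 to 1.41, adjusted p = 1, exact binomial test). It was the 1 keratin with a mean above 10 CPM that was not called. Krt23, a type I chain, stood at 0.883 and 13.6 CPM and was 15.4-fold higher in library 2 (6.50 to 47.9, adjusted p = 4.36e-21, exact binomial test). Krt222, which codes for a keratin-like protein, stood at 1.41 and 0.696 CPM and was not called. Krt90 had no read in library 1 and 13 in library 2, Krt12, the keratin of the cornea, had 2 in each, Krt42 had 1 in library 2, and Krt24 and Krt88 had none.

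Read ratios of partner chains were then compared between the libraries, since the efficiency of each amplicon is shared by both. These ratios carry exact 95% intervals and no test. In library 1 Krt5 and Krt14 were read almost equally, at 0.889 to 1 (0.683 to 1.16), whereas in library 2 Krt5 outnumbered Krt14 7.44 to 1 (5.95 to 9.41). Krt5 to Krt15 moved less, from 0.655 (0.511 to 0.836) to 1.02 (0.916 to 1.14). Krt1 to Krt10 stood at 13.5 (6.61 to 32.1) in library 1 and at 0.30 (0.0531 to 1.17) in library 2, where both rest on 10 reads or fewer. Krt8 to Krt18 was 1 of 2 pairs whose intervals overlapped, at 0.923 (0.385 to 2.19) and 0.459 (0.410 to 0.514). Between stages, Krt5 to Krt1 moved from 1.04 (0.789 to 1.36) to 218 (74.4 to 1061). Between kinds of epithelium, Krt5 to Krt8 moved from 9.33 (5.14 to 18.6) to 1.44 (1.28 to 1.63). Krt8 to Krt19 moved from 0.400 (0.187 to 0.805) to 1.09 (0.951 to 1.25). Krt7 to Krt19 stood at 0.267 (0.106 to 0.595) and 0.554 (0.470 to 0.652), the other pair with overlapping intervals.

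**Figure D4:**
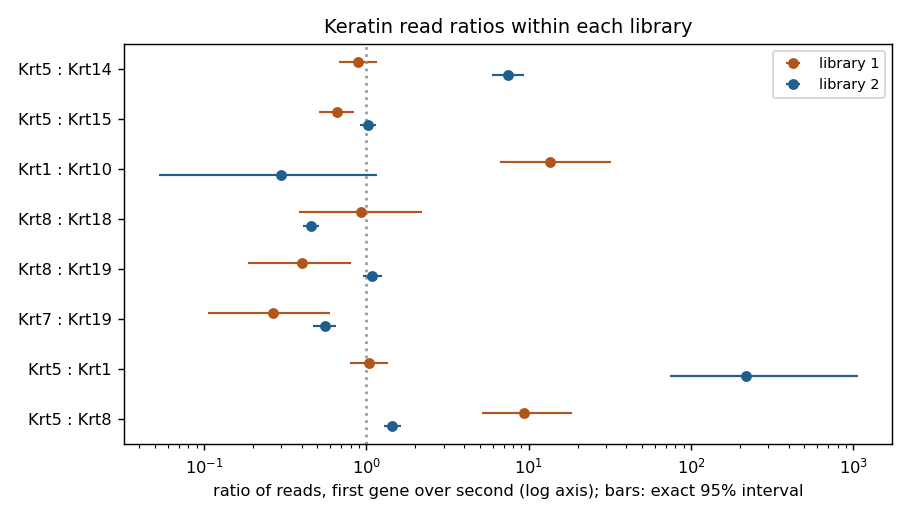
Ratio of the reads of 2 keratins within each library, on a log axis with exact 95% intervals that cover counting error only. The dotted line marks equal reads. Krt5 to Krt14, Krt1 to Krt10 and Krt5 to Krt1 differ most between the libraries, and the intervals of Krt8 to Krt18 overlap.

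The keratin genes lie in 2 clusters, and neighbours need not share a level. Of the 51 genes, 27 lie on chromosome 11, all type I, and 24 on chromosome 15, where Krt18 is the type I gene at the edge of the type II genes. Krt8 (101996698 to 102004482, minus strand) and Krt18 (102028180 to 102032027, plus strand) are neighbours 23697 bases apart and were both higher in library 2. Krt1 (101845426 to 101850794) and Krt77 (101858731 to 101869705) are 7936 bases apart and were both higher in library 1. Krt4 and Krt79 are 4596 bases apart and were called in opposite directions. Krt15 and Krt19, 4881 bases apart on chromosome 11, were both higher in library 2, and the next gene called along the cluster, Krt14, was higher in library 1.

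**Figure D5:**
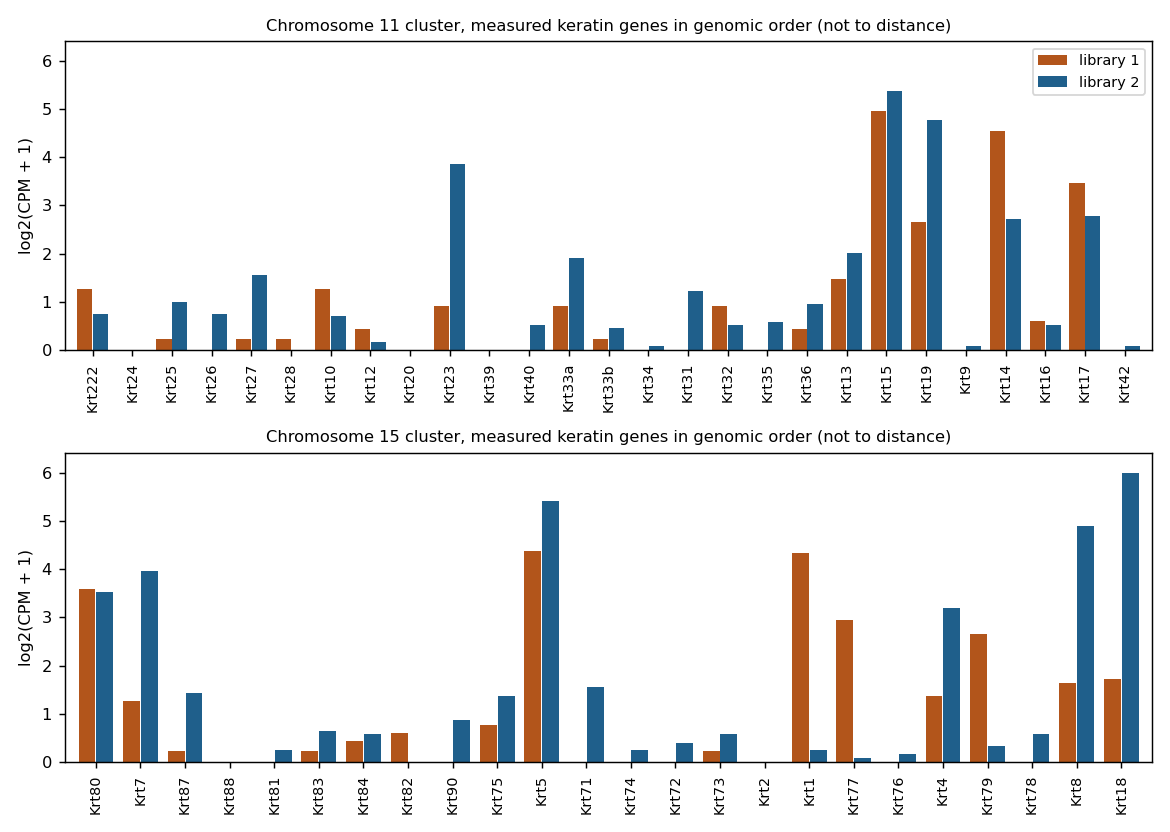
Level on the log2(CPM + 1) scale of each measured keratin in the order of the genes along the chromosome 11 and chromosome 15 clusters, with 1 bar per library. Distances are not drawn. Most hair keratins of chromosome 11 are near 0, and the neighbours Krt8 and Krt18 at the right end of chromosome 15 are high in library 2.

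Upstream sequences are shown for keratins that parted or moved together between the libraries, to set the letters before their start sites side by side. They come from RefSeq (GRCm38.p6) and run 5′ to 3′ on the strand of the gene, from 250 bases before the RefSeq start and ending where an annotated exon begins. Krt5 (chr15:101712906-101713155, minus strand) and Krt14 (chr11:100206031-100206280, minus strand) are the basal pair, Krt77 (chr15:101869706-101869955, minus strand) was higher in library 1, and Krt8 (chr15:102004483-102004592, minus strand) and Krt18 (chr15:102027966-102028179, plus strand) were higher in library 2. The RefSeq start of Krt14 lies within the longer GENCODE gene. Krt27 (chr11:99351119-99351368, minus strand) and Krt71 (chr15:101743110-101743347, minus strand) are the inner root sheath pair. Capitals mark the motifs searched, each on both strands. The first was the TATA box, spelled TATAAA. The second was the AP-1 site, with the letters TGANTCA. The third was the AP-2 site, with the letters GCCNNNGGC. The last was the Sp1 site, a GC box spelled GGGCGG.
Krt5: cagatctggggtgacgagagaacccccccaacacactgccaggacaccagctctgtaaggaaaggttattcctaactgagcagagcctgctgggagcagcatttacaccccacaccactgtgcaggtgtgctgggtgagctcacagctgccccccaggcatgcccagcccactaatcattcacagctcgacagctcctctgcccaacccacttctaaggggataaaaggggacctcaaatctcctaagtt
Krt14: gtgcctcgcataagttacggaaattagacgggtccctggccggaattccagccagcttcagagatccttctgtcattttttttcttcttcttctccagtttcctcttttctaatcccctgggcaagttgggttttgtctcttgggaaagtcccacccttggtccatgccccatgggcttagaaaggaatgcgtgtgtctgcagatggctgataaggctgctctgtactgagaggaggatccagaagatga
Krt77: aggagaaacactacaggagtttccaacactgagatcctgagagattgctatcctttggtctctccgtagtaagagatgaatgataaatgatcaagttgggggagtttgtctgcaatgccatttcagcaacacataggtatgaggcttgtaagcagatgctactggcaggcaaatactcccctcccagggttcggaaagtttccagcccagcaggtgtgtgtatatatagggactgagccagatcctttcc
Krt8: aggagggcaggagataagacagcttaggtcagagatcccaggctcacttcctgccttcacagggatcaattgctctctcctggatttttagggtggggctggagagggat
Krt18: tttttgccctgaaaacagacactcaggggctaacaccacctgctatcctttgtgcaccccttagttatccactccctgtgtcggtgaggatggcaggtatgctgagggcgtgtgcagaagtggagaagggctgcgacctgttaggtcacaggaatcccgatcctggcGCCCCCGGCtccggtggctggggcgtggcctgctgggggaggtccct
Krt27: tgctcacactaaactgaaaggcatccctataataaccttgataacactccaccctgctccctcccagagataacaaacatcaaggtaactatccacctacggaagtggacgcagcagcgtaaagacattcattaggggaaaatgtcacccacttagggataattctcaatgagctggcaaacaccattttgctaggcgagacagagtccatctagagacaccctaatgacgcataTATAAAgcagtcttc
Krt71: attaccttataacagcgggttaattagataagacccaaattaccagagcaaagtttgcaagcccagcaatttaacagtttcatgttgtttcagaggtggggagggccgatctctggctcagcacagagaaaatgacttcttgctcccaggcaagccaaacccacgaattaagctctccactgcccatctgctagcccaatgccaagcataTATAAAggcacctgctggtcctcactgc

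The Krt27 and Krt71 stretches hold TATAAA near their 3′ end, the Krt18 stretch holds the AP-2 letters, and the other 4 hold none of the motifs as spelled. Of the 51 keratins, 36 had an entry in the promoter table, with 37 start sites in all. TATAAA was found in the 250 bases before 17 of these 37 starts (45.9%), against 12.4% of 32841 starts of all genes. By class, it stood before 13 of 18 hair keratins, 2 of 7 suprabasal, 1 of 4 simple epithelial, 1 of 5 other and neither of the 2 basal keratins. Those 2 were Krt5 and Krt14, while Krt15 had no entry. The letters before the start of the longer GENCODE Krt14 gene were not searched. A TATAAA that begins 15 to 45 bases before the start was found for 14 keratins, 10 of them hair keratins, and at 2.95% of all starts. GGGCGG stood before 5.41% of keratin starts and 32.7% of all starts, the AP-2 letters before 13.5% and 13.7%, and the AP-1 letters before 5.41% and 6.75%. A match of letters is a description and shows no binding.

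Near-identical copies limit which keratin some reads belong to, since the place of each amplicon within its gene is not known here. Over stretches of 50 bases of the GENCODE M21 transcripts, Krt1, Krt77, Krt4, Krt19, Krt23, Krt79 and Krt80 shared none with any other gene. Krt18 shared 0.720%, Krt15 0.640% and Krt7 0.296%. Krt8 shared 26.9%, all with the processed pseudogene Krt8-ps. Krt14 shared 13.9%, mainly with Krt16, and Krt5 shared 8.52%, mainly with Krt6a, a gene not used here. The values of Krt8, Krt14 and Krt5, and the read ratios that use them, are uncertain if the amplicon lies in a shared stretch. These percentages are parts of the transcript and do not give the size of an error in the reads. Among hair keratins the share reached 37.7% in Krt81, 37.6% in Krt16, 36.9% in Krt87, 33.1% in Krt34, 28.1% in Krt31, 24.2% in Krt33b, 22.1% in Krt83, 17.8% in Krt33a, 11.1% in Krt27 and 10.9% in Krt25, so the values of these genes are uncertain.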

How the data were processed

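RNA of 2 suture libraries was measured with the Ion AmpliSeq mouse transcriptome panel, per the labels' protocols, in which primers amplify 1 short stretch per gene, so levels do not grow with gene length but depend on each amplicon. The authors deposited CPM values, 1 column per library. The submitters' processing notes name the build mm10; the sources used here give no aligner, counter or filter. All values above 0 (100%) were whole multiples of a library's step (tolerance 0.01 reads), so reads were recovered from the deposited CPM. Symbols replaced by dates (27) were restored from target names. Python 3.11.15, scipy 1.17.1 and, for TMM scaling, edgeR 4.0.16 were used. Detection meant 1 CPM in both libraries and log2 differences used a pseudocount of 1 CPM. Folds are ratios of CPM. Groups came from the titles. The labels do not state separate animals, so the spread may be technical. With 1 group, no conditions could be tested. Members, classes and marker lists were chosen with earlier results of these data known. Named were all keratins and the 3 highest genes of each of 13 lists, of which 1 is not reported here. Genes named beyond that rule (Flg, Dsc1, Dsg2, Dsg3, Dsg4, Trp63, Foxn1, Tchh, Hoxc13, Atoh1, Lrrn4) were chosen after their values were seen. Positions came from GENCODE M21 (GRCm38). Krt6a, Krt6b and Krt86 are annotated there and not used here. The binomial test was tested on simulated reads. Alternatives were other scalings, thresholds, pseudocounts and each library alone.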

Additional observations from a re-analysis of the deposited data

How the results depend on the processing

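Detection depended on its threshold. Of the 51 keratins, 11 were detected at 1 CPM in both libraries, 3 at 10 CPM in both and 18 with more than 3 reads in both. With either library alone the count ranged from 16 to 19, and the summed level from 148 to 283 CPM, against 216 CPM over both. The 19 keratin calls were the same genes with TMM and with median-of-ratios scaling. With only targets averaging 1 CPM or more tested, 15 remained, since Krt31, Krt71, Krt82 and Krt87 were then not tested. That was 15 of 20 keratins, against 62.3% of the 14097 targets tested. With at least 2-fold required, 17 of the 51 remained, without Krt15 and Krt17, against 14.8% of all targets. Under both scalings, 21 of 21 keratins tested kept the direction and the call of their log2 difference. A pseudocount cannot change a sign or a call, but it changed sizes: with 5 CPM in place of 1 CPM, 13 of 21 differences shrank by more than 1.5 times, Krt1 from -4.08 to -2.21, Krt79 from -2.33 to -0.97 and Krt27 from 1.33 to 0.43. Depth limits the low keratins, since 3 reads stand for 0.530 CPM in library 1. No paired analysis was possible because the libraries form 1 group.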
